A study of Mus musculus with 12 samples.

Results

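The miR-106b-25 cluster is a set of 3 microRNAs (miRNAs, small RNAs that guide repression of messages) cut from a single transcript of the Mcm7 gene. Its members were chosen by name as the guide strands mmu-miR-106b, mmu-miR-93 and mmu-miR-25, which are 3 of the 611 mouse miRNAs on the arrays. The samples, 3 in each of 4 groups, were cultures of 3T3-L1, an established mouse preadipocyte line of fibroblast shape that differentiates into fat cells when given the right hormones. Lithium plus MDI cells were preadipocytes treated with 25 mM lithium chloride and induced with MDI. MDI is a differentiation medium of the phosphodiesterase inhibitor IBMX, dexamethasone and insulin. MDI cells spent 3 days in that medium, then 2 days with insulin only and 2 more in plain medium, and were taken at day 7. Lithium cells were given 25 mM lithium chloride without MDI, and preadipocytes are the undifferentiated cells. The labels give no schedule for the lithium plus MDI, lithium or preadipocyte cells, so time in culture and treatment cannot be told apart. In the submitters' design MDI stands for suppressed and lithium for activated WNT signalling, so the comparisons ask which miRNAs move with differentiation and whether lithium alters that. All groups come from 1 cell line, and the labels do not say whether the samples of a group were separate cultures. The p-values therefore measure spread between samples that may be technical replicates.

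The cluster lies within Mcm7, which encodes a subunit of the helicase that unwinds DNA for replication, and it is transcribed with its host when cells enter the cycle under E2F and MYC control. Its best studied targets in mammalian cells are brakes on proliferation and survival, among them Cdkn1a (a cyclin kinase inhibitor) and Bcl2l11 (a promoter of cell death). It is a paralog of the miR-17-92 and miR-106a-363 clusters. 3T3-L1 preadipocytes pass through a burst of cell division early after MDI, before they fill with fat.

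The mature sequences show why the 3 members are considered together with those paralogs. Capitals mark the seed, bases 2 to 8, which pairs with target messages. miR-106b and miR-93 share a seed with miR-17, miR-20a and miR-20b, whereas miR-25 has the seed of miR-92a. The sequences are from RefSeq, read 5′ to 3′, and all 18 names looked up there were matched.
miR-106b: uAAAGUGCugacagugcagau
miR-93: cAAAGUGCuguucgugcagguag
miR-20a: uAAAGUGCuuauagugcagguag
miR-20b: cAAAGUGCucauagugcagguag
miR-25: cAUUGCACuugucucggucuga
miR-92a: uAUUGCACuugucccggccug

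Aligned from the 5′ end without gaps, miR-106b and miR-93 were identical at 16 of 21 bases, and miR-106b and miR-20a at 18 of 21. miR-93 and miR-20b were identical at 20 of 23 bases, and miR-25 and miR-92a at 18 of 21. miR-106b and miR-25 shared 5 of 21. miR-93 thus differed from its paralog miR-20b at fewer bases than from its neighbour miR-106b. Whether the array probes also bound such relatives was not tested.

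The 3 hairpins lie on the minus strand of chromosome 5 of the mouse build GRCm38.p6, all inside Mcm7 (chr5:138164583-138172111), within a stretch of 498 bases. In transcription order Mir106b (chr5:138165737-138165818) comes first, Mir93 (chr5:138165523-138165610) follows after 126 bases, and Mir25 (chr5:138165321-138165404) after another 118. The hairpins are printed to show where each guide, in capitals, sits. It lies on the 5′ arm in Mir106b and Mir93 and on the 3′ arm in Mir25.
Mir106b: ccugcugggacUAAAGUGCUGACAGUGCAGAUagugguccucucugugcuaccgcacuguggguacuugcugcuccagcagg
Mir93: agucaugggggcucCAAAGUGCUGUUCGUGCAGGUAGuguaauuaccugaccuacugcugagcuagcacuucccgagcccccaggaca
Mir25: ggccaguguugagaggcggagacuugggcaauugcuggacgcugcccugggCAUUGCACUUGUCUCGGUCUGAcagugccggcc

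Signals are given on the log2 scale relative to the array's own 75th percentile, taken over the 181 probes detected on all 12 arrays, so 0 is the level of that percentile. A miRNA counted as detected where most spots of its brightest probe were well above background, and the 157 that were detected throughout 1 group or more were tested. Arrays detected between 126 and 178 miRNAs. Of 34 markers of epithelium, skeletal muscle, blood, neural tissue, liver with endothelium and pluripotent cells, 2 were detected on any array, miR-205 on 3 and miR-128 on 7. The summed scaled signal of all 34 was 0.036 to 0.177 in lithium plus MDI, -0.029 to 0.060 in MDI, 0.013 to 0.290 in lithium and 0.030 to 0.067 in preadipocytes, and its part in the results was not tested. The 7 mesenchymal markers measured all gave a detected signal, 6 of them on all 12 arrays. Cells of another type and RNA per cell cannot be told apart in these bulk samples.

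Of the 12 arrays, 6 correlated more closely with another group than with their own in mean r. Array 3 of lithium plus MDI correlated at r = 0.965 on average with the preadipocyte arrays and at 0.924 with its own group. Array 1 of lithium was closer to MDI (0.960) than to its own group (0.942), and array 3 of the preadipocytes was closer to lithium (0.957) than to its own (0.939). Arrays 1 and 2 of lithium plus MDI were closer to MDI (0.974 and 0.966) than to their own group (0.959 and 0.944), and MDI array 1 to lithium plus MDI (0.956 against 0.954). Whether the label of lithium plus MDI array 3 is right cannot be told from the files. The limma results and the correlations between members are therefore given with and without that array. Permutation tests on differences between members and the nearest profiles are given only with it. The arrays lay on 2 slides: slide 1 held the 3 preadipocyte arrays and MDI array 1, and slide 2 the other 8. Slide and treatment therefore cannot be told apart in lithium against preadipocytes or in lithium plus MDI against preadipocytes, except through that single MDI array.

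miR-106b, the first hairpin of the transcript, varied least. Its normalized log2 signal was -0.94, -0.99 and -0.94 on lithium plus MDI arrays 1 to 3 and -0.66, -1.14 and -1.36 on the MDI arrays. It was -1.44, -1.17 and -1.22 on the lithium arrays and -1.57, -1.20 and -1.39 on the preadipocyte arrays. The 3 lithium plus MDI arrays lay close together and above all lithium and all preadipocyte arrays, whereas MDI overlapped every other group. The means were -0.95 ± 0.03 in lithium plus MDI, -1.06 ± 0.36 in MDI, -1.28 ± 0.14 in lithium and -1.39 ± 0.19 in preadipocytes (SD, n = 3 each).

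miR-93, which shares its seed with miR-106b, had its higher values on the arrays of MDI-treated cells, with 1 exception. Its log2 signal was -0.42, -0.18 and -2.01 on the lithium plus MDI arrays and -0.84, -0.82 and -0.58 on the MDI arrays. It was -1.66, -1.26 and -1.38 on the lithium arrays and -1.58, -1.52 and -1.83 on the preadipocyte arrays. All MDI arrays lay above all lithium and preadipocyte arrays. Lithium plus MDI arrays 1 and 2 were the highest of the 12 and array 3 the lowest. The means were -0.87 ± 0.99 in lithium plus MDI, -0.74 ± 0.14 in MDI, -1.43 ± 0.21 in lithium and -1.64 ± 0.16 in preadipocytes (SD, n = 3 each).

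miR-25, the member with the other seed, resembled miR-93 on the arrays of MDI-treated cells, but its lithium mean lay below its preadipocyte mean. Its log2 signal was -0.08, 0.00 and -1.69 on the lithium plus MDI arrays and -0.40, -0.71 and -0.44 on the MDI arrays. It was -1.13, -1.43 and -1.56 on the lithium arrays and -1.01, -0.93 and -1.44 on the preadipocyte arrays. The MDI arrays again lay above all lithium and preadipocyte arrays, and lithium plus MDI again held the 2 highest arrays and the lowest. The means were -0.59 ± 0.95 in lithium plus MDI, -0.51 ± 0.17 in MDI, -1.38 ± 0.22 in lithium and -1.13 ± 0.28 in preadipocytes (SD, n = 3 each).

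**Figure D1:**
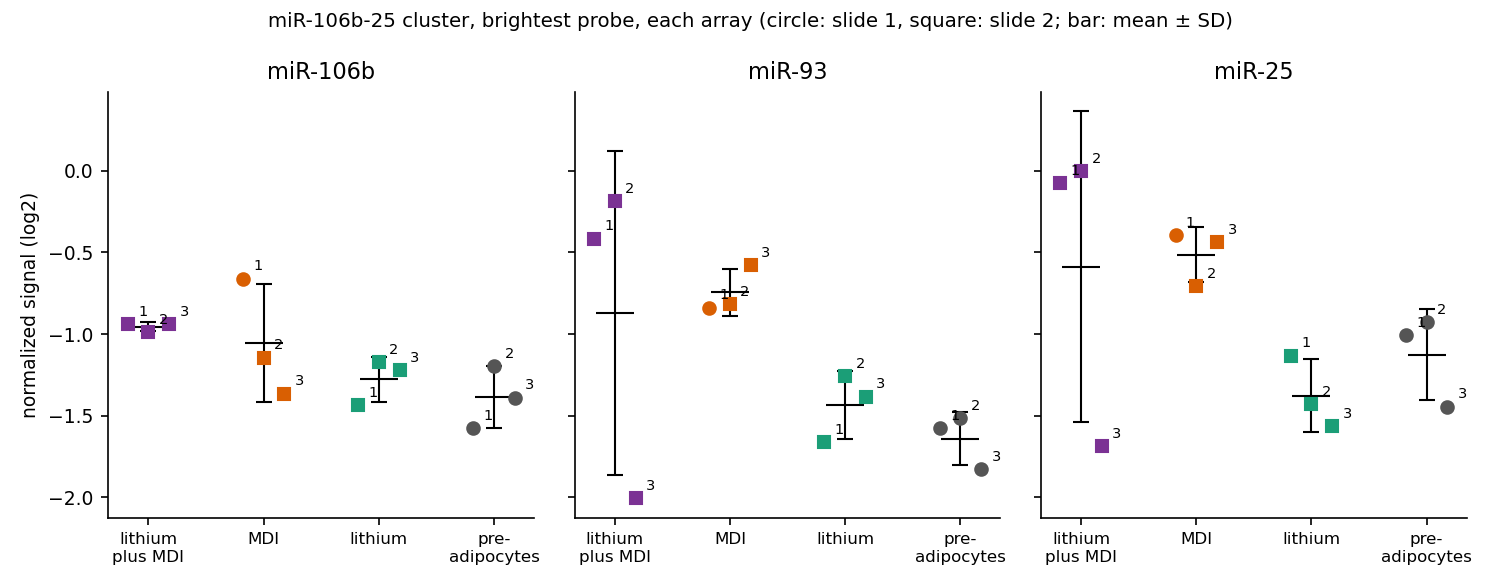
Normalized signal (log2) of miR-106b, miR-93 and miR-25 on each of the 12 arrays, numbered by replicate, with circles for slide 1 and squares for slide 2, and bars for the group mean ± SD. In lithium plus MDI cells array 3 lies far below the others for miR-93 (-2.01) and miR-25 (-1.69) but not for miR-106b (-0.94).

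The order of the group means was lithium plus MDI, MDI, lithium, preadipocytes for miR-106b. For miR-93 it was MDI, lithium plus MDI, lithium, preadipocytes, and for miR-25 it was MDI, lithium plus MDI, preadipocytes, lithium. Without lithium plus MDI array 3 the mean of that group was -0.30 for miR-93 and -0.04 for miR-25. These lay above the MDI means of -0.74 and -0.51, so lithium plus MDI then ranked first for all 3 members. With the scaling used here, the MDI-treated groups thus ranked above the others for all 3 members, but no neighbours in these orders differed in the test. Most miRNAs tested lay the same way. Of all 157, 56.7% were above 0 in MDI against preadipocytes and 63.7% in MDI against lithium. For lithium plus MDI it was 71.3% against lithium and 67.5% against preadipocytes. Of the 21 tests (3 members in 6 pairs of groups and the interaction), none passed limma at a Benjamini-Hochberg adjusted p of 0.05 over 157 miRNAs. At an unadjusted p under 0.05 there were 2, miR-93 in MDI against preadipocytes and miR-25 in MDI against lithium.

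MDI against preadipocytes, in which treatment, time in culture and largely slide cannot be told apart, had all 3 members above 0. Their log2 differences were 0.33 for miR-106b (SE 0.25, limma adjusted p 0.442), 0.90 for miR-93 (SE 0.39, adjusted p 0.229) and 0.61 for miR-25 (SE 0.39, adjusted p 0.387). For miR-93 that is 1.86-fold with a 95% interval of 0.06 to 1.73 on the log2 scale. The arrays of miR-93 and of miR-25 did not overlap between these groups, as was so for 26.8% of all 157 miRNAs tested (15.9% as higher). Of all, 3.18% passed the test and 17.8% had an unadjusted p under 0.05. On slide 1, where MDI array 1 could be set against the 3 preadipocyte arrays, the log2 differences were 0.73 for miR-106b, 0.80 for miR-93 and 0.73 for miR-25, with limma adjusted p-values of 0.227, 0.170 and 0.330. The lone MDI array has no spread of its own there and is assumed to vary like the preadipocyte arrays. A fit with the slide as a block gave those same differences, with adjusted p-values of 0.191, 0.545 and 0.597.

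The direction of these 3 differences depended on how the arrays were scaled. Before scaling, the intensity of miR-93 was 148, 217 and 230 on the MDI arrays and 168, 201 and 220 on the preadipocyte arrays, and those groups overlapped. Without scaling the log2 differences were -0.57 for miR-106b, -0.01 for miR-93 and -0.29 for miR-25, while the median of all 157 miRNAs was -0.70, against 0.10 with it. Taken relative to the median of the miRNAs tested in each setting (157 in all but 2, which tested 611 and 108), all 3 members lay above 0 under each of 17 settings, miR-106b by 0.13 to 0.65, miR-93 by 0.66 to 0.97 and miR-25 by 0.41 to 0.74. Settings that leave out a single array in turn are not among those 17. The 17 are not separate checks, since several change only the variance model or the median and leave a member's difference as it is.

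MDI in lithium-treated cells again had all 3 members above 0. In lithium plus MDI against lithium the log2 differences were 0.32 for miR-106b (SE 0.25, limma adjusted p 0.363), 0.57 for miR-93 (SE 0.39, adjusted p 0.312) and 0.79 for miR-25 (SE 0.39, adjusted p 0.180). Of the 3, only miR-106b had groups that did not overlap, as did 33.8% of all miRNAs tested (26.1% as higher). Of all, 30.6% had an unadjusted p under 0.05 and 0% passed the test. The median of all 157 was 0.39 here, so relative to it miR-106b stood at -0.07, miR-93 at 0.17 and miR-25 at 0.39. With quantile normalization the difference of miR-106b was -0.12.

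With the brightest probes, lithium without MDI gave small differences of mixed sign, and slide and treatment cannot be told apart in them. In lithium against preadipocytes the log2 differences were 0.11 for miR-106b (limma adjusted p 0.816), 0.21 for miR-93 (adjusted p 0.749) and -0.25 for miR-25 (adjusted p 0.714). On these probes no member had groups that did not overlap, against 29.9% of all miRNAs tested. In that comparison 6.37% of miRNAs passed and 22.3% had an unadjusted p under 0.05. The 95% intervals ran from -0.42 to 0.64 for miR-106b, from -0.63 to 1.04 for miR-93 and from -1.08 to 0.58 for miR-25. The difference of miR-25 was -1.15 (limma adjusted p 0.0212) where the percentile was taken over all mouse probes and -0.94 (adjusted p 0.0257) without scaling. In those settings 49.7% and 47.1% of all miRNAs passed, nearly all lower, and the medians were -0.90 and -0.69.

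Lithium plus MDI against MDI asks whether lithium alters the level reached under MDI. The log2 differences were 0.10 for miR-106b, -0.13 for miR-93 and -0.07 for miR-25, each with a limma adjusted p of 0.981 or more and with overlapping groups (0.30, -0.17 and -0.02 on slide 2 alone), while 12.1% of miRNAs did not overlap, 3.82% had an unadjusted p under 0.05 and 0% passed. The interaction, in which the effect of MDI without lithium is subtracted from its effect with lithium, was -0.01 for miR-106b (SE 0.35), -0.33 for miR-93 (SE 0.55) and 0.18 for miR-25 (SE 0.55), with limma adjusted p-values of 0.992, 0.761 and 0.857. Again 0% of the miRNAs tested passed, and 22.3% had an unadjusted p under 0.05. Without the 3 arrays that correlated least with their own group (lithium plus MDI 3, lithium 1 and preadipocytes 3), the interaction of miR-25 was 1.01 (limma adjusted p 0.0134), and 43.9% of miRNAs then passed. Those arrays were picked on the same data, so that call is no separate test.

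The 2 remaining pairs set each MDI-treated group against the other group without MDI. In lithium plus MDI against preadipocytes the log2 differences were 0.43, 0.77 and 0.54 for miR-106b, miR-93 and miR-25, with limma adjusted p-values of 0.426, 0.325 and 0.447. The groups of miR-106b did not overlap, as for 17.8% of miRNAs (14% as higher). Of all, 1.27% passed and 17.2% had an unadjusted p under 0.05. In MDI against lithium the differences were 0.22 for miR-106b, 0.69 for miR-93 and 0.86 for miR-25, with limma adjusted p-values of 0.558, 0.266 and 0.218. There miR-93 and miR-25 had groups that did not overlap, against 30.6% of miRNAs (18.5% as higher). Of all, 21% had an unadjusted p under 0.05 and 0% passed. On slide 2 alone, and with the slide as a block, the last 3 differences were 0.02, 0.74 and 0.80. With that block, lithium plus MDI against preadipocytes gave 1.03, 0.63 and 0.71 and lithium against preadipocytes 0.70, 0.06 and -0.08 for miR-106b, miR-93 and miR-25, none past the threshold.

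A single array carried most of the spread of miR-93 and miR-25. Lithium plus MDI array 3 minus the mean of arrays 1 and 2 was -1.71 for miR-93, -1.65 for miR-25 and 0.02 for miR-106b on the log2 scale. Without that array miR-93 passed in MDI against preadipocytes at 0.90 (SE 0.21 in place of 0.39, limma adjusted p 0.0184), with 11.5% of miRNAs passing. In lithium plus MDI against lithium, miR-93 was then higher by 1.13 (adjusted p 0.00903) and miR-25 by 1.34 (adjusted p 0.00737), with 24.2% of miRNAs passing. In lithium plus MDI against preadipocytes miR-93 was higher by 1.34 (adjusted p 0.00321) and miR-25 by 1.09 (adjusted p 0.0144), with 22.9% passing. In MDI against lithium miR-25 passed at 0.86 (adjusted p 0.0367), with 7.01% passing.

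miR-106b passed in no comparison without that array, and lithium plus MDI against MDI remained without a pass for any member, at 0.09 for miR-106b, 0.44 for miR-93 and 0.47 for miR-25. The last 2 have the opposite sign of their values with all 12 arrays. The array was kept under its label. It was singled out on these same data, so the calls without it are no separate test.

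**Figure D2:**
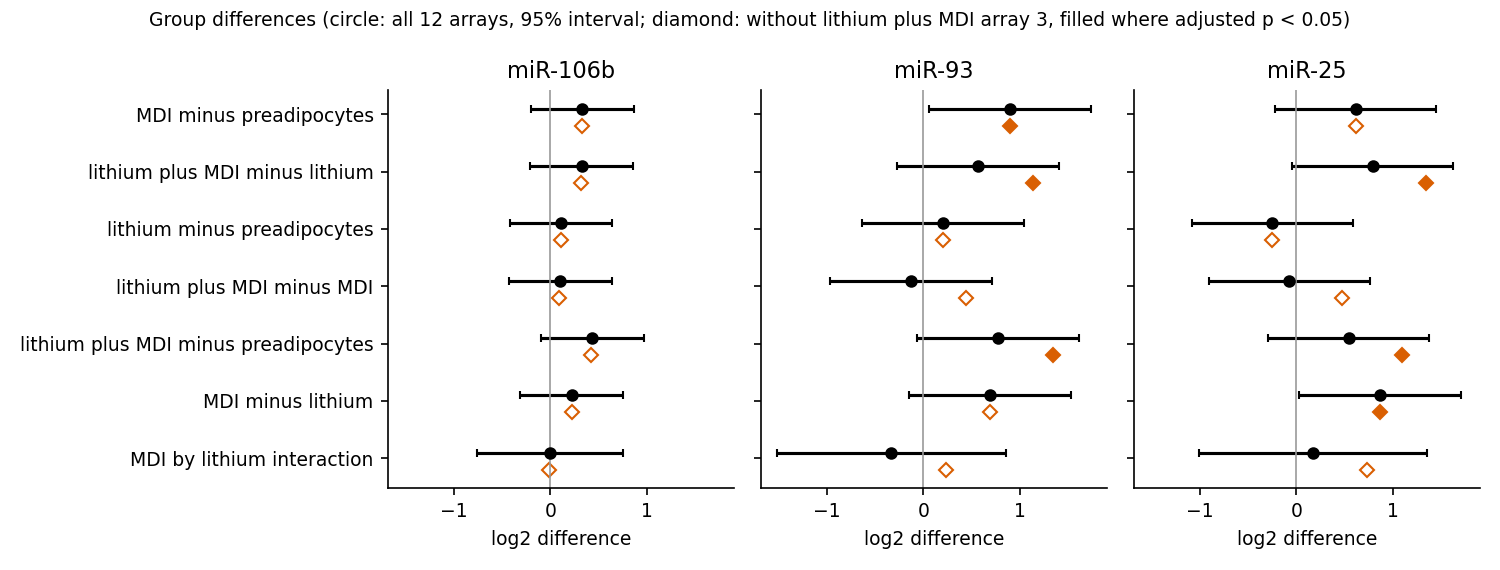
Log2 differences of the 3 members in the 6 pairs of groups and the interaction, as circles with 95% intervals over all 12 arrays, and as diamonds without lithium plus MDI array 3, filled where the adjusted p was under 0.05. None of the 21 circles stands for a difference that passed, and the filled diamonds belong to miR-93 and miR-25.

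Differences between members on the same array do not depend on a scaling factor per array. They can change with other processing: the MDI against preadipocytes differences of miR-93 and miR-106b were 0.90 and 0.33 here and 0.96 and 0.31 with quantile normalization. miR-93 minus miR-106b was 0.52, 0.80 and -1.07 on the lithium plus MDI arrays, -0.18, 0.33 and 0.79 on the MDI arrays, -0.23, -0.08 and -0.16 on the lithium arrays and 0.00, -0.32 and -0.44 on the preadipocyte arrays. miR-25 minus miR-106b was 0.86, 0.99 and -0.75 on the lithium plus MDI arrays, 0.26, 0.44 and 0.93 on the MDI arrays, 0.30, -0.26 and -0.34 on the lithium arrays and 0.57, 0.27 and -0.06 on the preadipocyte arrays. These 2 differences spread widely, from below to above 0 within lithium plus MDI, and only their changes between groups can be read, since probes differ in brightness. miR-93 minus miR-25 kept a narrower range, -0.34, -0.18 and -0.32 in lithium plus MDI, -0.44, -0.11 and -0.14 in MDI, -0.53, 0.17 and 0.18 in lithium and -0.57, -0.59 and -0.38 in preadipocytes. Of 18 two-sided exact permutation tests on these differences, 1 reached the smallest p that 3 arrays against 3 allow, 0.1, for miR-93 minus miR-25 in lithium plus MDI against preadipocytes (0.23 higher, adjusted p 0.72 over the 18).

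miR-93 and miR-25 varied together over the 12 arrays, mainly between groups and on 1 array. Their signals correlated at Pearson's r = 0.899 (permutation p 0.00011, adjusted over 3 pairs 0.00033) and Spearman's rho = 0.846 (permutation p 0.00101, adjusted 0.00303). The r was 0.808 without the 2 arrays farthest from the median, lithium plus MDI 1 and 2, and 0.876 without lithium plus MDI array 3. Over deviations from the group means it was 0.896 with that array and 0.159 without it, so within groups the relation rested on that array. Among the lithium arrays miR-93 was lowest (-1.66) on array 1, where miR-25 was highest (-1.13). miR-106b followed neither closely. With miR-93 its r was 0.411 (permutation p 0.185, adjusted 0.235) and its rho 0.385 (permutation p 0.219, adjusted 0.297), and with miR-25 its r was 0.370 (permutation p 0.235, adjusted 0.235) and its rho 0.329 (permutation p 0.297, adjusted 0.297). Without lithium plus MDI array 3 these were r = 0.625 with miR-93 and 0.566 with miR-25, and over deviations from group means of all 12 arrays -0.05 and -0.03. The 12 points share the scaling of their array. The permutations shuffled all 12 arrays without regard to their groups. Their p-values therefore do not separate differences between groups from variation within them, and they treat samples of a group as independent. The median r with the 154 other tested miRNAs was 0.129 for miR-106b, 0.186 for miR-93 and 0.351 for miR-25.

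**Figure D3:**
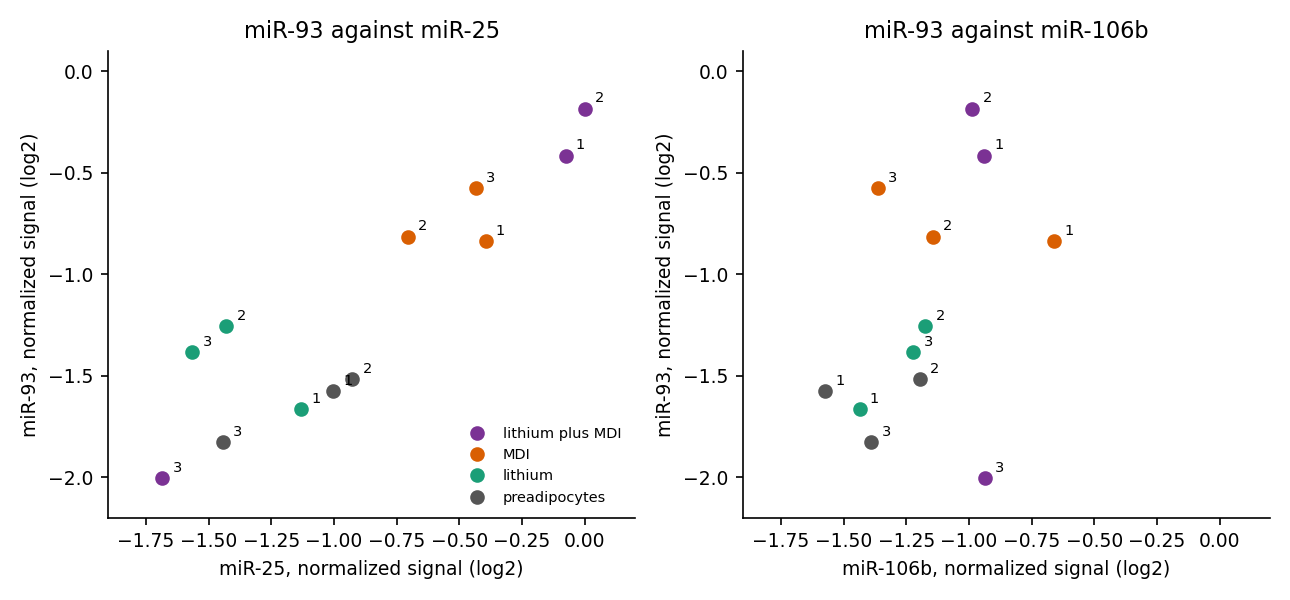
Normalized signal (log2) of miR-93 against miR-25 (left) and against miR-106b (right) on the 12 arrays, coloured by group and numbered by replicate. The left points run along a line (r = 0.899), and on the right lithium plus MDI array 3 lies apart, with the lowest miR-93 (-2.01) at an upper miR-106b level (-0.94).

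Each member had 2 probes, and both were detected on all 12 arrays. The probes of a member correlated at r = 0.952 for miR-106b, 0.970 for miR-93 and 0.945 for miR-25. In MDI against preadipocytes the dimmer probes gave log2 differences of 0.32 for miR-106b, 1.24 for miR-93 and 0.95 for miR-25, against 0.33, 0.90 and 0.61 for the brightest ones used above. In lithium against preadipocytes the probes of miR-25 had opposite signs, 0.16 for the dimmer and -0.25 for the brightest. The dimmer probes of miR-106b and miR-93 gave 0.20 and 0.65 there, against 0.11 and 0.21 for the brightest. On the dimmer probe of miR-93 all lithium arrays lay above all preadipocyte arrays, unlike on its brightest probe. The probes thus shared the order of the MDI differences, with miR-106b the smallest.

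**Figure D4:**
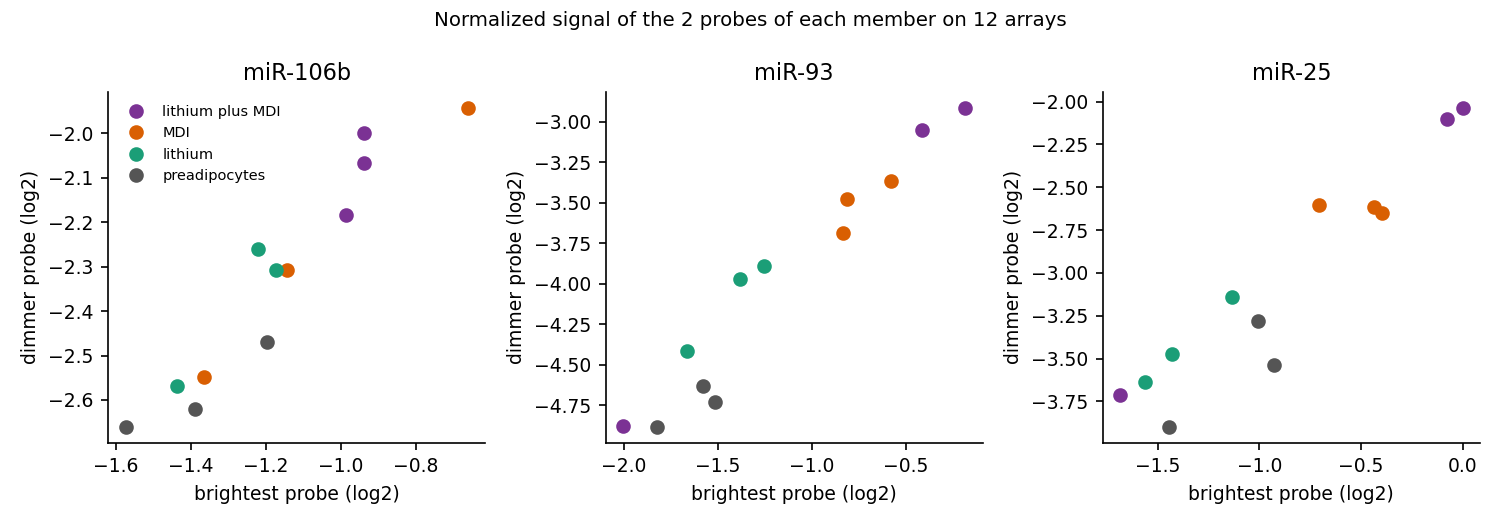
Normalized signal (log2) of the dimmer against the brightest probe of each member on the 12 arrays, coloured by group. The points rise together for all 3 members (r = 0.945 to 0.970).

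The other strands of the hairpins left no measurable signal. miR-106b* and miR-93*, the strands opposite the guides, were on the array and detected on 0 of 12 arrays. miR-25* was not analysed here. The guide strands were thus the products of the locus that could be followed, and Mcm7 mRNA was not measured by these arrays.

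The miRNAs whose profile over the 12 arrays was most like the mean of the 3 members were largely paralogs. The 5 highest of 154 were miR-18a (r = 0.964), miR-20a (0.929), miR-20b (0.922), miR-7a (0.920) and miR-92a (0.919), against a median r of 0.306. These r include lithium plus MDI array 3 and were not computed without it. miR-18a was detected on 7 arrays and had values at the floor of the measurement, which have no order. By member, miR-20a correlated with miR-93 at r = 0.956 and miR-92a with miR-25 at 0.953, pairs that share a seed. Yet miR-20a and miR-20b, which share the seed of miR-106b too, correlated with it at 0.491 and 0.488, and with other seeds miR-18a reached 0.939 with miR-93 and miR-7a 0.934 with miR-25.

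Of the 11 miRNAs of the miR-17-92 and miR-106a-363 clusters, the arrays carried 10, of which 7 gave a detected signal at least once and 6 were tested. miR-17, miR-18b and miR-363 were detected on no array, miR-19a on 4, and miR-106a was not analysed here. The 6 tested were miR-17*, miR-18a, miR-19b, miR-20a, miR-20b and miR-92a, and 0 of them passed in any of the 7 comparisons. Of miR-25's other seed relatives miR-92b, miR-363, miR-367 and miR-32, none was detected.

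miR-20a, a miR-17-92 member with the seed of miR-93, had a profile like that of miR-93. Its log2 signal was -0.95, -0.63 and -2.74 on the lithium plus MDI arrays, -0.92, -1.17 and -0.95 on the MDI arrays, -2.03, -1.80 and -1.83 on the lithium arrays and -2.63, -2.23 and -2.33 on the preadipocyte arrays. Array 3 of lithium plus MDI was the lowest of the 12, as it was for miR-93. miR-92a, which has the seed of miR-25, had 0.23, 0.51 and -2.23 on the lithium plus MDI arrays, 0.27, -0.51 and 0.00 on the MDI arrays, -0.61, -1.20 and -1.41 on the lithium arrays and -0.90, -1.06 and -1.70 on the preadipocyte arrays. Here too the third lithium plus MDI array was the lowest.

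In MDI against preadipocytes the 4 paralogs detected on all 12 arrays had log2 differences of 1.38 for miR-20a (limma adjusted p 0.0830), 1.34 for miR-20b (adjusted p 0.0830), 1.16 for miR-19b (adjusted p 0.0830) and 1.14 for miR-92a (adjusted p 0.296). Those values are numerically above the 0.90 of miR-93, and the difference between them was not tested. miR-18a was detected on 3 of 3 MDI and 1 of 3 preadipocyte arrays, so its size depends on the floor. Without lithium plus MDI array 3, 5 of the 6 paralogs passed in this comparison, with 7.01% of all miRNAs passing as higher, and 4 of the 6 in lithium plus MDI against lithium, with 18.5% passing as higher. Of the fits with and without that array, only the one without it thus had calls of miR-93, miR-25 or the paralogs. Calls of the paralogs under other settings are not given here.

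**Figure D5:**
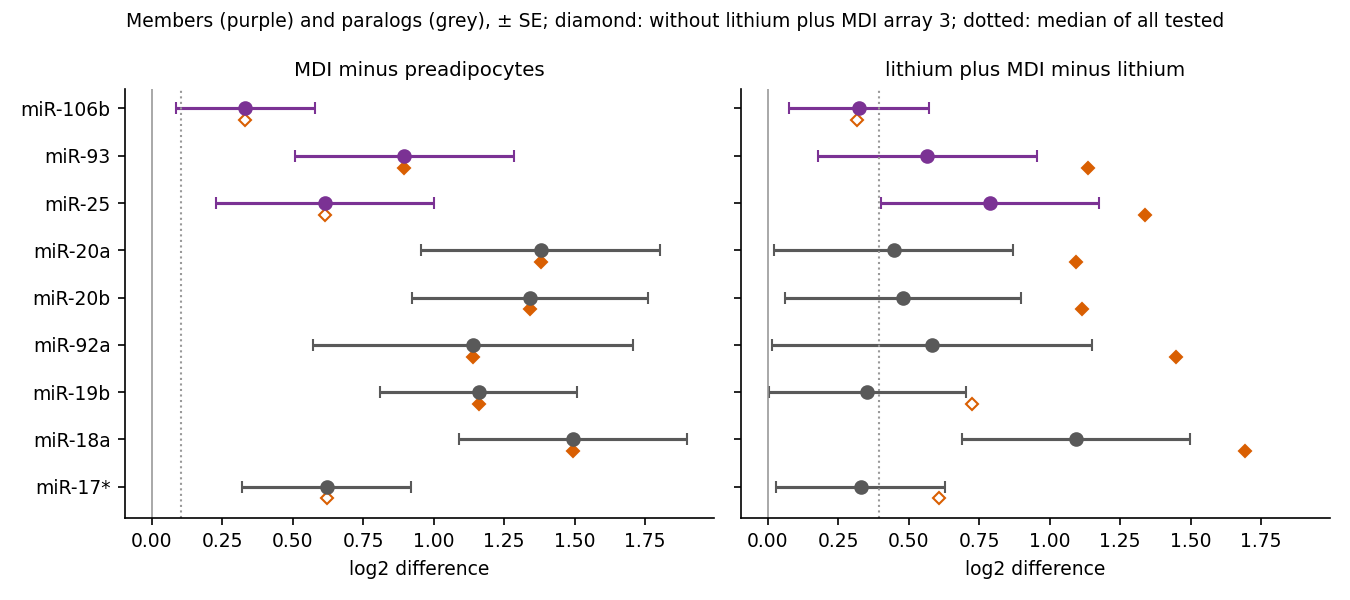
Log2 differences ± SE of the 3 members and the 6 tested paralogs in MDI minus preadipocytes and in lithium plus MDI minus lithium, with diamonds for values without lithium plus MDI array 3 (filled where the adjusted p was under 0.05) and a dotted line at the median of all 157 miRNAs (0.10 and 0.39). All 9 lie above 0 in both panels, none passes over all 12 arrays, and the values of miR-18a and miR-17* depend on the floor.

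The remaining lists show how miRNAs outside these clusters compared. Of 12 miRNAs linked to the cell cycle, which were detected on all arrays, none passed in any of the 7 comparisons, with 5 of 12 above 0 in MDI against preadipocytes (median -0.04) and 8 of 12 in lithium plus MDI against lithium (median 0.40). Over all tested miRNAs 56.7% and 71.3% were above 0, with medians of 0.10 and 0.39. The cell cycle list was not split by whether its miRNAs restrain or promote division, so its counts give no direction for the cycle. Of 10 miRNAs reported with fat cell differentiation, 9 were tested and none passed in these comparisons, with 2 of 9 above 0 in MDI against preadipocytes (median -0.65).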

How the data were processed

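Small RNAs in 0.5 ug of total RNA, labelled with Cy3, were measured on 12 single-colour Agilent arrays. Per the file headers, the deposited spot intensity is background-subtracted, as the authors obtained it from Agilent Feature Extraction 10.5.1.1 (9.5.3 per the submitters' processing notes). The authors' deposited table was read as log2, since it correlated at r of 0.997 or above with the log2 total signal. Its column medians are 0.00175 to 0.0958, and its scale, centring and treatment of dim signals are not given in the sources used here. It served as an alternative.

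Outlier spots were dropped and the remaining spots averaged per probe, scaled by the 75th percentile, floored at the 5th percentile of well-above-background values (-4.97 on the log2 scale) and log2 transformed. Of the tested values 9.02% lay at the floor, and no mouse spot was saturated. The brightest probe stood for a miRNA. limma 3.58.1 in R 4.3.3 fitted 4 group means on all 12 arrays, with a two-sided moderated test and Benjamini-Hochberg adjustment over 157 miRNAs (threshold 0.05), and was tested on simulated data. Permutation tests used numpy 2.4.6, with ranks and adjusted p-values from scipy 1.17.1, and figures used matplotlib 3.10.9. The number of arrays limits the precision.

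Named were the 3 members, the other strands, the paralogs, the seed relatives, 2 comparison lists, cell type markers and the 5 miRNAs most correlated with the member mean. Members and lists were chosen with earlier results of these data known. Alternatives changed the scaling, background correction, floor, filter, probe rule, variance model, values used, slide and replicate terms, and the arrays included. Replicate numbers were not taken to pair samples: of 18 pairs of same-numbered arrays, deviations from the group means correlated at -0.482 to 0.473, with 9 above 0.1. For 36 pairs of differently numbered arrays the range was -0.520 to 0.604, with 11 above 0.1. The median was 0.061 with the same number and -0.063 with different numbers.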

Additional observations from a re-analysis of the deposited data

How the results depend on the processing

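Over the 12 arrays no result passed, so alternatives could only add calls or turn a sign. Leaving out 1 array at a time kept 235 of 252 values in direction and side of the threshold, added 6 calls and turned 11 signs. An array outside the groups compared cannot change their difference, so the direction of many of these values was fixed beforehand. Some of the other alternatives change only the variance model and cannot turn a sign. Together the other alternatives kept 277 of 324, added 11 calls and turned 36 signs. Of those 36, 21 came from the percentile over all mouse probes and from no scaling, which shift most miRNAs one way (medians of all 157 in MDI against preadipocytes -0.64 and -0.70). Relative to the median of its setting, all 21 had the same sign as the reported value relative to its own median. The 6 calls added by leaving out 1 array all came without lithium plus MDI array 3. Lowest and highest log2 differences with 1 array left out, for miR-106b, miR-93 and miR-25 in turn, were 0.13 to 0.48, 0.80 to 0.96 and 0.45 to 0.71 in MDI against preadipocytes. They were 0.02 to 0.20, 0.11 to 0.32 and -0.41 to -0.15 in lithium against preadipocytes, and 0.24 to 0.37, 0.22 to 1.13 and 0.49 to 1.34 in lithium plus MDI against lithium. They were -0.052 to 0.30, -0.47 to 0.44 and -0.37 to 0.47 in lithium plus MDI against MDI, and 0.34 to 0.53, 0.43 to 1.34 and 0.24 to 1.09 in lithium plus MDI against preadipocytes. They were 0.02 to 0.38, 0.58 to 0.78 and 0.77 to 0.98 in MDI against lithium, and -0.16 to 0.19, -0.67 to 0.24 and -0.12 to 0.72 for the interaction. With the percentile over all mouse probes, miR-106b had -0.48 in MDI against preadipocytes, -0.79 in lithium against preadipocytes, -0.14 in lithium plus MDI against MDI, -0.62 in lithium plus MDI against preadipocytes and 0.65 for the interaction. miR-93 then had -0.69 in lithium against preadipocytes, -0.28 in lithium plus MDI against preadipocytes and 0.33 for the interaction, and miR-25 had -0.20, -1.15 and -0.51 in MDI, lithium and lithium plus MDI against preadipocytes. Without scaling miR-106b had -0.57, -0.58 and -0.29 in MDI, lithium and lithium plus MDI against preadipocytes and 0.86 for the interaction. miR-93 had -0.0053 in MDI and -0.49 in lithium against preadipocytes, 0.052 in lithium plus MDI against MDI and 0.54 for the interaction. miR-25 had -0.29, -0.94 and -0.19 in MDI, lithium and lithium plus MDI against preadipocytes and 0.10 in lithium plus MDI against MDI. With normexp background correction, MDI and lithium against preadipocytes and the interaction were -0.022, -0.20 and 0.25 for miR-106b, and the last 2 were -0.13 and 0.032 for miR-93. With quantile normalization miR-106b had -0.12 in lithium plus MDI against lithium and -0.19 against MDI, and the interaction of miR-25 was -0.11. In the authors' deposited table miR-106b had -0.22 in lithium plus MDI against lithium, -0.12 against MDI and -0.10 in MDI against lithium, and the interaction of miR-25 was -0.16. Without the 3 arrays that correlated least with their own group, 24.2% of all miRNAs passed in MDI against preadipocytes, 52.9% in lithium against preadipocytes, 56.1% in lithium plus MDI against lithium, 24.2% against preadipocytes, 42% in MDI against lithium and 43.9% for the interaction. Among them miR-93 passed at 0.80 in MDI against preadipocytes, 1.02 in lithium plus MDI against lithium, 1.25 against preadipocytes and 0.58 in MDI against lithium, and had 0.44 in lithium plus MDI against MDI and 0.22 for the interaction. miR-25 then passed at -0.53 in lithium against preadipocytes, 1.46 in lithium plus MDI against lithium, 0.93 against preadipocytes, 0.98 in MDI against lithium and 1.01 for the interaction, and had 0.47 in lithium plus MDI against MDI. These 3 arrays were picked on the same data as those least like their own group, so calls without them are no separate test. The cause of these changes was not tested. A fit with the replicate number as a block changed no call of a member, with 0.90 for miR-93 in MDI against preadipocytes (limma adjusted p 0.199). It moved the number of all miRNAs passing in lithium plus MDI against lithium to 16, against 0 without the block, and in the interaction to 4, against 0. Over all settings that number ran from 0 to 62 in MDI against preadipocytes (5 as reported), 0 to 83 in lithium against preadipocytes (10), 0 to 88 in lithium plus MDI against lithium (0), 0 to 0 against MDI (0), 0 to 44 against preadipocytes (2), 0 to 66 in MDI against lithium (0) and 0 to 69 for the interaction (0). The slide 1 values and the dimmer probes were added after seeing the data.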
